A study of Mus musculus with 3 samples.

Results

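The genes described here are 10 genes of the inhibitory receptor pathway of myeloid cells: the receptor genes Sirpa, Cd300a, Cd300lf, Clec12a, Siglec1 and Cd33, the ligand gene Cd47, and the phosphatase genes Ptpn6, Ptpn11 and Inpp5d. They were taken by gene symbol, and each symbol matched exactly 1 of the 22028 protein-coding genes among 55536 annotated genes. Their 73 annotated transcripts were described as well. The study sequenced total RNA, depleted of ribosomal RNA, from the chromatin fraction of macrophages grown from the bone marrow of C57BL/6J mice, a fraction in which RNA still being made is abundant. All 3 libraries belong to 1 group, in which cells received Lipid A at 100 ng/ml for 12 h, a washout of 12 h, and Lipid A again at 100 ng/ml for 40 min. Lipid A is the part of lipopolysaccharide that Toll-like receptor 4 recognises. The libraries are numbered as biological replicates 1, 2 and 3 and were made from 1 µg, 250 ng and 500 ng of RNA. The labels carry 1 donor entry, that of the strain, for the whole set and record neither sex nor age, so the spread given below is that between these samples and may be partly technical. Untreated and singly treated cells were not analysed here, and the text therefore gives levels and no response to Lipid A.

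Many inhibitory receptors carry a short tyrosine-based stretch in the cytoplasmic tail, the ITIM, which binds the SH2 domains of phosphatases once it is phosphorylated by Src-family kinases. The phosphatases SHP-1 and SHP-2, encoded by Ptpn6 and Ptpn11, then remove phosphate from tyrosines of activating receptors and their kinases, and SHIP-1, encoded by Inpp5d, removes a phosphate from the membrane lipid made by PI3-kinase. In macrophages the best known example is the binding of CD47 on a neighbouring cell to SIRPA, which restrains engulfment of that cell.

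The ITIM is shown for each receptor gene in which it was found, because it is the stretch through which these receptors reach the phosphatases. The pattern searched was isoleucine, valine, leucine or serine, any residue, tyrosine, any pair of residues, then isoleucine, leucine or valine, in the cytoplasmic tail of the protein that the GENCODE transcript encodes. Capitals mark the codons of the pattern and the coordinates, on mm10, are those of the capitals.
Sirpa ITIM 1, chr2:129629954-129629971, plus strand: aacgacATCACATACGCAGACCTGaatctg
Sirpa ITIM 2, chr2:129630077-129630094, plus strand: gataccCTCACCTATGCTGACCTGgacatg
Sirpa ITIM 3, chr2:129630149-129630166, plus strand: tctttcTCAGAGTATGCTAGTGTCcaggtc
Cd300a ITIM 1, chr11:114899846-114899863, plus strand: gaagtgGTGGAATATAGCACATTGgcatta
Cd300a ITIM 2, chr11:114901147-114901164, plus strand: gaagagCTTCACTATTCATCCGTGgcattc
Cd300lf ITIM 1, chr11:115117648-115117665, minus strand: ggtgatCTCTGTTATGCAGACCTGtccctg
Cd300lf ITIM 2, chr11:115117112-115117129, minus strand: gaggagGTTTCATATGCCGCTCTGactttg
Clec12a ITIM, chr6:129350433-129350450, plus strand: gaagaaATTGTTTATGCAAATCTCaaaatc
The pattern occurred 3 times in the tail of Sirpa, 2 times each in Cd300a and Cd300lf, and 1 time in Clec12a, whose tail is the N-terminal end of the protein. No match was found in the tail encoded by Cd33-202, Cd33-203, Siglec1-201 or the Cd47 transcripts, which says only that these letters are not there. In Cd33-201 and Cd33-205 no residue followed the last hydrophobic stretch, and in Siglec1-202 and Siglec1-203 no such stretch was found. No tail was therefore searched in these models. Of 5315 protein-coding genes with a hydrophobic stretch within 150 residues of the C-terminal end, 19.3% held the pattern after that stretch, so the pattern alone does not single out an inhibitory receptor.

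For the phosphatases, the sequences shown are the catalytic signature of protein tyrosine phosphatases (histidine, cysteine, any pair of residues, glycine, any pair of residues, arginine, then serine or threonine) and the NPxY pattern of SHIP-1 (asparagine, proline, any residue, tyrosine), which is known as a docking site when phosphorylated. In both Ptpn6 and Ptpn11 the codons of the signature are split by an intron, so the coordinates span that intron and the sequence is the spliced one.
Ptpn6 signature, chr6:124722060-124724964, minus strand: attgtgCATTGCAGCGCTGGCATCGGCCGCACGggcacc
Ptpn11 signature, chr5:121143611-121144537, minus strand: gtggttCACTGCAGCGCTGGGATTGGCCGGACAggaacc
Inpp5d NPxY 1, chr1:87715078-87715089, plus strand: atgatcAATCCAAACTACattggt
Inpp5d NPxY 2, chr1:87717763-87717774, plus strand: tttgagAACCCACTGTATggatcc
The signature was encoded by 0.371% of 21842 protein-coding genes and the NPxY pattern by 3.62%.

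Chromatin RNA of these macrophages contained all 10 genes, with mean levels from 5.95 to 1063 TPM, a measure of abundance per transcript length scaled to a fixed total per library. Each gene had a mean of at least 10 expected counts, against a background of 49.7% of protein-coding genes. The lowest mean was that of Ptpn11 (495 counts). By mean TPM, 7 of the 10 genes were among the top decile of protein-coding genes, against 10% of all protein-coding genes by construction. Those 7 were Sirpa, Inpp5d, Cd300lf, Clec12a, Siglec1, Cd47 and Ptpn6. The median of the 10 genes was 84.8 TPM, and that of the 10952 detected protein-coding genes was 7.32 TPM. In bulk RNA of this kind, fewer cells that transcribe a gene and less RNA of it per cell cannot be told apart.

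**Figure D1:**
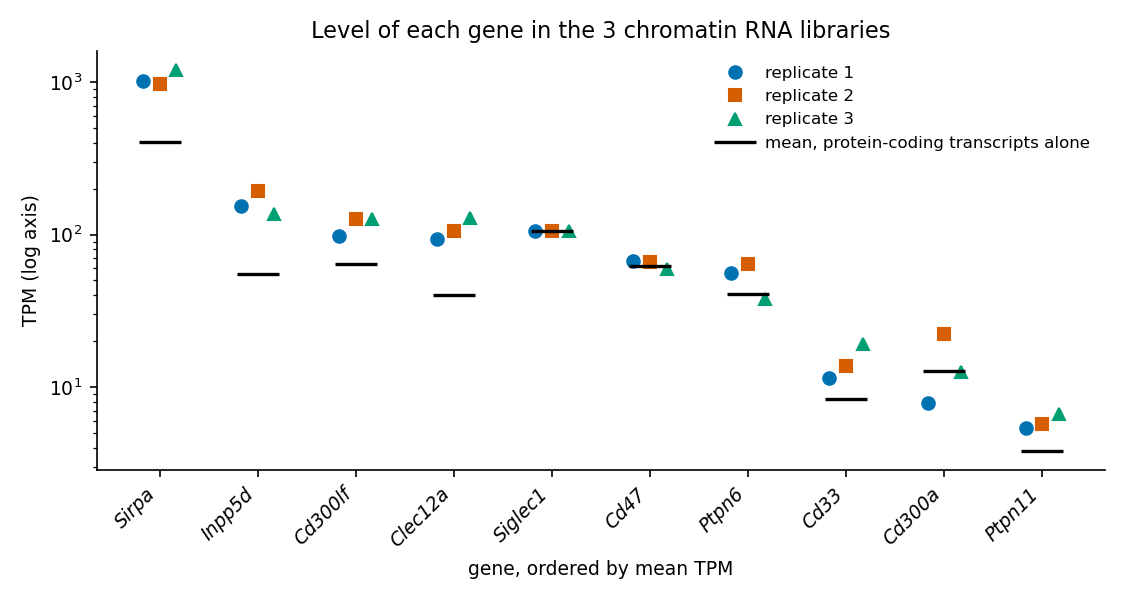
TPM (length-normalised transcript abundance, log axis) of each gene in replicates 1, 2 and 3, with genes ordered by mean TPM. Black lines are the means when protein-coding transcripts alone are summed. Sirpa runs from 966 to 1204 TPM and Ptpn11 from 5.42 to 6.69 TPM, and the black line lies below the 3 points for Sirpa, Inpp5d, Cd300lf, Clec12a, Cd33 and Ptpn11.

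Among the receptors, Sirpa (ENSMUSG00000037902.18, chr2:129592835-129632228, plus strand), the receptor for CD47, had 1019, 966 and 1204 TPM in replicates 1, 2 and 3, a mean of 1063 ± 125 (SD, n = 3). It ranked 14 among protein-coding genes, and exceeded Inpp5d, the next of the 10 genes, by 6.62-fold, 5.0-fold and 8.88-fold in the same libraries. Cd300lf (ENSMUSG00000047798.15, chr11:115116214-115133992, minus strand), which encodes a lipid-binding receptor of the CD300 family, had 97.6, 127 and 126 TPM. Replicate 1 was the low library for Cd300lf, and the mean was 117 ± 16.6 (SD, n = 3). Clec12a (ENSMUSG00000053063.11, chr6:129342691-129365303, plus strand), which encodes a C-type lectin that senses uric acid crystals from dead cells, had 93.9, 105 and 128 TPM, a mean of 109 ± 17.2 (SD, n = 3). Siglec1 (ENSMUSG00000027322.11, chr2:131069220-131086765, minus strand) encodes sialoadhesin, a macrophage receptor for sialic acid. It had 105.5, 105.7 and 105.6 TPM, a mean of 105.6 ± 0.101 (SD, n = 3), so its libraries were level on this scale.

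The other receptor genes were lower. Cd33 (ENSMUSG00000004609.11, chr7:43524216-43544428, minus strand), which encodes a further sialic-acid receptor, had 11.4, 13.8 and 19.2 TPM, a mean of 14.8 ± 3.99 (SD, n = 3), with replicate 3 highest. Cd300a (ENSMUSG00000034652.12, chr11:114890041-114904654, plus strand), which encodes a receptor for phospholipids of dying cells, had 7.89, 22.4 and 12.4 TPM. Its level in replicate 2 was 2.84 times that in replicate 1, the widest ratio among the 10 genes, and the mean was 14.3 ± 7.44 (SD, n = 3). Replicate 2 was also the library with the smallest RNA input, 250 ng, and the part of input in this difference was not tested.

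The ligand gene Cd47 (ENSMUSG00000055447.19, chr16:49800533-49915010, plus strand) had 66.7, 65.6 and 59.8 TPM, a mean of 64.0 ± 3.71 (SD, n = 3). Ligand and receptor genes were thus both present in chromatin RNA of the same cultures, and Sirpa exceeded Cd47 by 15.3-fold, 14.7-fold and 20.1-fold in replicates 1, 2 and 3. On the log2(TPM + 1) scale the difference was 4.03 ± 0.25 (SD, n = 3), in the same direction in 3 of 3 libraries. With protein-coding transcripts alone it was 2.67. An exact sign-flip test over 3 libraries cannot give a two-sided p below 0.25, so none is given for any pair of genes here.

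The phosphatase genes differed widely. Inpp5d (ENSMUSG00000026288.14, chr1:87620312-87720507, plus strand), encoding SHIP-1, had 154, 193 and 136 TPM, a mean of 161 ± 29.5 (SD, n = 3), and was the second highest of the 10 genes. Ptpn6 (ENSMUSG00000004266.15, chr6:124720707-124738714, minus strand), encoding SHP-1, the form typical of blood cells, had 55.8, 64.1 and 37.9 TPM, a mean of 52.6 ± 13.4 (SD, n = 3), with replicate 3 low. Ptpn11 (ENSMUSG00000043733.14, chr5:121130533-121191397, minus strand), encoding the broadly expressed SHP-2, had 5.42, 5.73 and 6.69 TPM, a mean of 5.95 ± 0.662 (SD, n = 3). Ptpn6 exceeded Ptpn11 by 10.3-fold, 11.2-fold and 5.67-fold in replicates 1, 2 and 3, so the SHP-1 gene was the higher in each library while the size of its lead differed. Inpp5d exceeded Ptpn6 by 2.76-fold, 3.02-fold and 3.58-fold, a difference of 1.61 ± 0.18 in log2(TPM + 1) (SD, n = 3). That difference was 0.97 in the read-based quantification and 0.45 with protein-coding transcripts alone. The difference between Ptpn6 and Ptpn11 was 2.92 ± 0.51 (SD, n = 3) in log2(TPM + 1) and 3.75 in the read-based quantification. The SHIP-2 gene Inppl1, a gene of the phosphatase list singled out after its values were seen, had 43.4 ± 10.8 TPM (SD, n = 3), and Inpp5d exceeded it by 4.13-fold, 3.46-fold and 3.66-fold.

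In descending order of mean TPM the genes ran Sirpa, Inpp5d, Cd300lf, Clec12a, Siglec1, Cd47, Ptpn6, Cd33, Cd300a and Ptpn11. For 4 of the 9 neighbouring pairs the ranges over the libraries overlapped: Cd300lf with Clec12a, Clec12a with Siglec1, Cd47 with Ptpn6, and Cd33 with Cd300a. Within libraries, Cd47 exceeded Ptpn6 in 3 of 3, by 1.20-fold, 1.02-fold and 1.58-fold, while the order of the other pairs differed between libraries. The ranges of the other 5 pairs lay apart. The step from Sirpa to Inpp5d was 2.72 ± 0.41 on the log2(TPM + 1) scale, that from Ptpn6 to Cd33 was 1.76 ± 0.71 and that from Cd300a to Ptpn11 was 1.03 ± 0.69 (SD, n = 3). Smaller steps separated Siglec1 from Cd47 (0.72 ± 0.08) and Inpp5d from Cd300lf (0.45 ± 0.31). The step from Siglec1 to Cd47 turned round in the read-based quantification, which the authors made directly from reads, where Cd47 had 128 ± 5.31 and Siglec1 102 ± 9.86 TPM (SD, n = 3). The step from Cd300a to Ptpn11 was 2.02 there, in log2(TPM + 1). Read-based levels were 1816 ± 258 TPM for Sirpa, 110 ± 55.7 for Ptpn6, 31.1 ± 12.1 for Cd300a and 22.8 ± 4.70 for Cd33 (SD, n = 3), or 1.71, 2.08, 2.18 and 1.54 times the levels above.

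The protein-coding genes nearest in level to Sirpa, by root mean square difference in log2(TPM + 1) over the 3 libraries, were Rbm39 (0.06), Fth1 (0.13) and Parp14 (0.14), with means of 1104, 1112 and 967 TPM. Those nearest to Inpp5d were Xpo1 (0.04), Capza2 (0.11) and Impact (0.13), with 157, 153 and 154 TPM. This likeness is one of level over 3 libraries of 1 condition.

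In TPM, much of the signal of several genes was assigned to transcript models that encode no protein. How much of it was unspliced RNA of coding transcripts was not tested. GENCODE models classed as retained intron keep part of an intron between or beside coding exons. Other non-coding models are classed as processed transcripts, except Inpp5d-202, which is classed under nonsense-mediated decay and had 0 TPM. Protein-coding transcripts held under 50% of TPM in 3 of the 10 genes, namely Inpp5d (34.8% ± 3.92), Clec12a (37.3% ± 2.72) and Sirpa (38.1% ± 2.10; SD, n = 3). The share was 54.8% ± 3.54 in Cd300lf, 56.0% ± 6.50 in Cd33, 64.0% ± 5.75 in Ptpn11 and 78.1% ± 6.85 in Ptpn6. It was 92.6% ± 8.08 in Cd300a and 97.5% ± 2.47 in Cd47, and all 3 Siglec1 transcripts are protein-coding models. In counts the protein-coding share was under 50% in 2 genes, Cd300lf (34.5%) and Clec12a (38.1%). It was 84.5% of counts in Sirpa and 82.8% in Inpp5d. Of the 73 transcripts, 24 held at least 10% of the TPM of their gene: 15 protein-coding, 7 retained-intron and 2 processed transcripts.

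The boundaries between intron and coding exon inside some retained-intron models are shown because these models separate unspliced from spliced sequence there. The models shown are Sirpa-212, Clec12a-202, Ptpn11-203 and Inpp5d-203. Clec12a-203, Cd33-204, Ptpn6-204 and Ptpn6-206 have such boundaries too, which are not shown. Capitals are coding exon and lower case is intron, and the coordinates on mm10 are those of the whole stretch.
Sirpa-212 intron then exon, chr2:129621163-129621227, plus strand: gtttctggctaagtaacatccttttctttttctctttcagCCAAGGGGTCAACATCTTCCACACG
Sirpa-212 exon then intron, chr2:129627958-129628037, plus strand: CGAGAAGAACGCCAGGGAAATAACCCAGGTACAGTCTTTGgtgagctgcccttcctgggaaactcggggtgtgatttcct
Clec12a-202 intron then exon, chr6:129359368-129359447, plus strand: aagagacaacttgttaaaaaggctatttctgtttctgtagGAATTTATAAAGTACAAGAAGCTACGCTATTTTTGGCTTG
Ptpn11-203 exon then intron, chr5:121154390-121154469, minus strand: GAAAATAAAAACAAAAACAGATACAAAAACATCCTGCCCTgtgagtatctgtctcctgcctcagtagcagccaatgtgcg
Ptpn11-203 intron then exon, chr5:121152515-121152594, minus strand: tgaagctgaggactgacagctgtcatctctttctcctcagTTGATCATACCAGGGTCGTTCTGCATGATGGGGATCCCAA
Inpp5d-203 exon then intron, chr1:87635316-87635379, plus strand: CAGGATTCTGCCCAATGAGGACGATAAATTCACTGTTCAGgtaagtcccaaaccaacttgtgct
In Sirpa-212 (chr2:129620685-129628044), 565 of 642 bases lie outside coding exons. In Clec12a-202 the figure is 2606 of 3233 bases and in Ptpn11-203 it is 1875 of 7442, while Inpp5d-203 holds only 24 intronic bases of 364, so it is nearly all coding-exon sequence.

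Sirpa shows how far the scale matters. Sirpa-212 had 599, 573 and 677 TPM in replicates 1, 2 and 3, which was 58.1% ± 1.69 of Sirpa TPM (SD, n = 3). The same transcript held 15.1% ± 1.84 of Sirpa counts, since TPM divides by length and the model is short. The long coding models Sirpa-203, with 95.6, 126 and 159 TPM, and Sirpa-214, with 102, 115 and 138 TPM, held 28.5% and 25.5% of the counts. In the read-based quantification Sirpa-203 held 7.71% ± 1.65 of Sirpa TPM, and Sirpa-214 had 15.3, 16.2 and 8.39 TPM, or 0.753% ± 0.309 (SD, n = 3). There Sirpa-212 held 39.1% ± 0.896 of TPM, and other non-coding models held 25.8% ± 4.34, against 3.82% ± 0.896 in the transcriptome-aligned table. Of read-based counts Sirpa-212 held 18.1% and the other non-coding models 5.11%. Transcripts that encode the ITIM held 37.9% ± 2.21 of Sirpa TPM and 84.5% ± 2.06 of its counts (SD, n = 3).

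**Figure D2:**
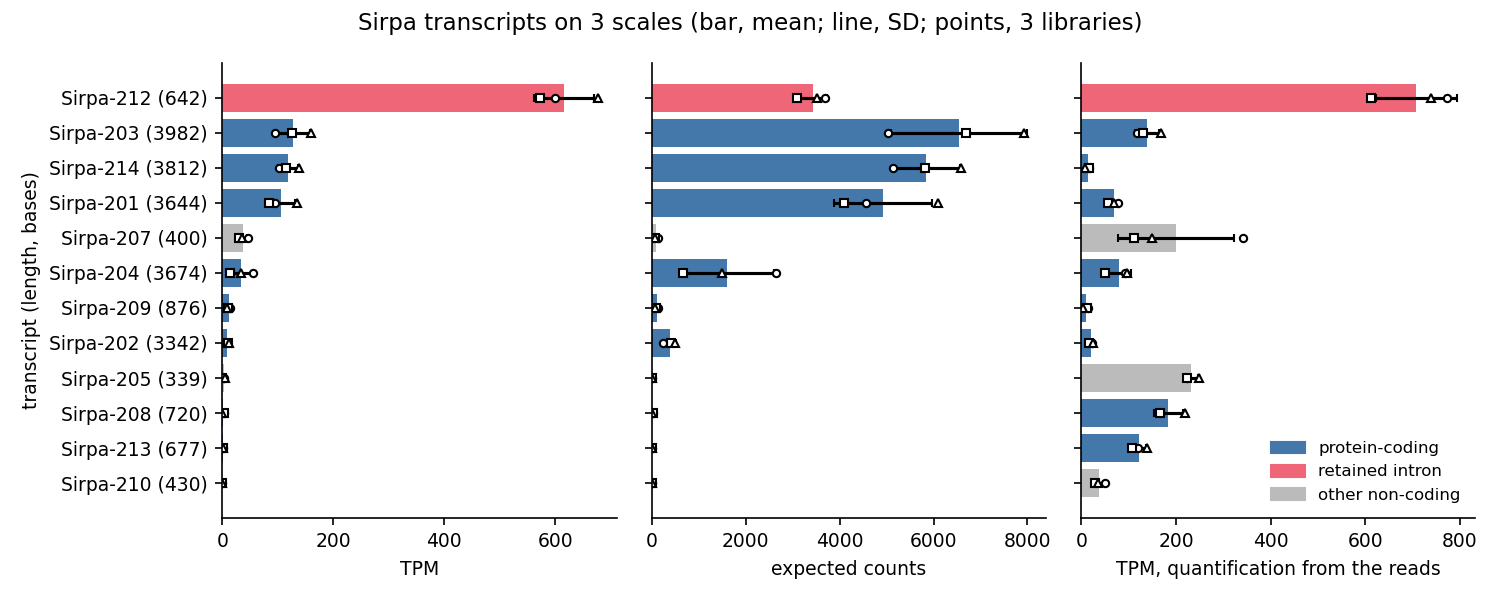
Sirpa transcripts with their lengths in bases (vertical axis) against TPM, expected counts, and TPM in the read-based quantification. Bars are means, lines SD and points the 3 libraries. The retained-intron model Sirpa-212 leads on both TPM axes, with 58.1% and 39.1% of the gene, and holds 15.1% of counts.

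Clec12a and Cd300lf kept a large non-coding share on each scale. The retained-intron model Clec12a-202 had 37.6, 49.2 and 57.8 TPM and the coding model Clec12a-201 had 37.9, 37.1 and 46.1 TPM, so the models were level in replicate 1 and the retained-intron model was higher in replicates 2 and 3. A shorter retained-intron model, Clec12a-203, had 18.4, 18.8 and 23.8 TPM. Together the retained-intron models held 62.7% ± 2.72 of TPM, 61.9% of counts, and 64.4% of TPM in the read-based quantification. For Cd300lf, the processed transcript Cd300lf-206, with 3142 of 3929 bases outside coding exons, had 41.4, 60.9 and 52.9 TPM. It held 44.1% ± 3.47 of Cd300lf TPM and 65.3% of its counts (SD, n = 3). The coding models Cd300lf-203 and Cd300lf-201 held 32.7% ± 4.86 and 13.4% ± 5.90 of TPM, and all 3 coding models encode both ITIM sites.

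The phosphatase genes split in another way. Inpp5d-203, the short model with few intronic bases, had 64.2, 80.6 and 50.8 TPM, which was 40.3% ± 2.41 of Inpp5d TPM but 3.02% of its counts (SD, n = 3). Inpp5d-210, the coding model that encodes the full protein of 1191 residues, had 24.3, 40.2 and 32.8 TPM and 51.7% of counts. The processed transcript Inpp5d-204 held 15.8% ± 3.03 of TPM. Transcripts encoding both NPxY sites held 34.2% ± 3.78 of Inpp5d TPM and 82.8% of counts. Ptpn6-202 held 71.2% ± 7.43 of Ptpn6 TPM and 88.8% of counts. In the read-based quantification it held 31.9% ± 8.19 of TPM and 80.3% of counts. Transcripts that encode the phosphatase signature held 77.7% ± 6.41 of Ptpn6 TPM and 35.6% ± 8.64 in the read-based quantification (SD, n = 3). Of counts they held 97.3% and, in the read-based quantification, 90.3%. There the short coding model Ptpn6-211, of 120 bases, held 23.2% of TPM on 4, 30 and 5 counts. In the transcriptome-aligned values the retained-intron model Ptpn6-204 had 15.4, 9.56 and 5.39 TPM. Ptpn11 was divided between the coding models Ptpn11-202 (49.2% ± 0.473) and Ptpn11-201 (14.8% ± 5.28) and the retained-intron model Ptpn11-203 (36.0% ± 5.75 of TPM, SD, n = 3). At 7442 bases Ptpn11-203 is longer than the coding models, and it held 43.0% of counts.

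For the remaining genes, Siglec1-201 had 84.0, 76.0 and 84.5 TPM and held 77.2% ± 4.60 of the gene, and Siglec1-203 held 17.2% ± 3.03 (SD, n = 3). Cd33-203 had 6.66, 6.57 and 11.5 TPM, while the retained-intron model Cd33-204 had 4.72, 6.54 and 6.74 TPM. In these transcriptome-aligned values the high level of Cd33 in replicate 3 therefore lay mainly in the coding model. In the read-based quantification Cd33-203 had 8.94, 8.21 and 11.4 TPM, and the processed transcript Cd33-206 had 5.02, 1.92 and 6.48 TPM. Cd300a-202 held 89.4% ± 7.42 of Cd300a TPM in the transcriptome-aligned table but 21.9% ± 5.97 in the read-based quantification, where another coding model and a processed transcript took 43.1% and 35.0%. That processed transcript, of 467 bases, held 3.23% of the read-based counts, and the coding models held 96.8%. Cd47-201 and Cd47-207, which encode proteins of 324 and 258 residues, held 42.3% ± 7.26 and 37.0% ± 6.36 of Cd47 TPM. In the read-based quantification Cd47-201 held 16.8% and Cd47-207 held 0% of TPM, so the division of Cd47 among its coding models is not settled by these tables.

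**Figure D3:**
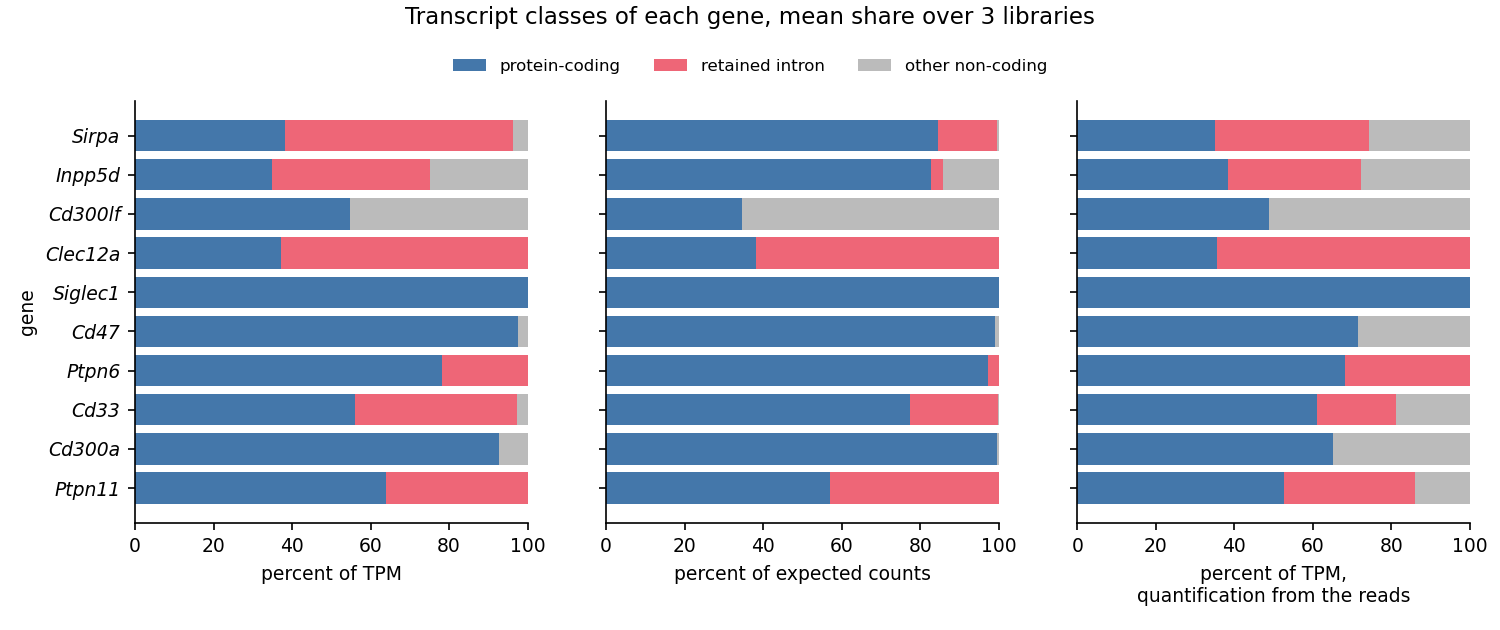
Mean share over 3 libraries (horizontal axis, percent) of protein-coding, retained-intron and other non-coding transcripts of each gene, in TPM, in expected counts and in TPM of the read-based quantification. Siglec1 is fully protein-coding on each scale. Retained-intron models of Clec12a hold 62.7%, 61.9% and 64.4%, whereas those of Sirpa fall from 58.1% of TPM to 15.1% of counts.

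Retained-intron shares of these genes were set beside those of other genes. Among 6285 protein-coding genes with both kinds of transcript and a mean of at least 1 TPM, the median retained-intron share of TPM was 41.8%. The 6 genes here with such a model had shares of 62.7% (Clec12a), 58.1% (Sirpa), 41.3% (Cd33), 40.3% (Inpp5d), 36.0% (Ptpn11) and 21.9% (Ptpn6). Their median was 40.8%, and Clec12a and Sirpa lay above the median of all such genes. In counts the median was 25.9% over all such genes and 18.8% over the 6, and there Clec12a (61.9%) and Ptpn11 (43.0%) lay above it, while Sirpa had 15.1% and Inpp5d 3.02%. Cd47, Cd300a, Cd300lf and Siglec1 have no model of that class.

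With protein-coding transcripts alone, an alternative chosen after seeing the data, the order of the genes changed. Sirpa stayed highest with 371, 362 and 487 TPM, a mean of 406 ± 69.8, followed by Siglec1 with 105.6 ± 0.0961 (SD, n = 3). Cd300lf (63.8 ± 8.57), Cd47 (62.4 ± 4.28) and Inpp5d (55.3 ± 4.45) came next, and then Ptpn6 (40.8 ± 9.75) and Clec12a (40.4 ± 4.97). Cd300a had 12.8 ± 5.56, Cd33 8.35 ± 2.88 and Ptpn11 3.81 ± 0.512 TPM. Inpp5d thus moved from above Cd300lf to below it, by 0.20 on the log2(TPM + 1) scale, and 7 genes still lay in the top decile.

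Between libraries, all 10 genes varied by more than counting noise. A chi-square test of counts against Poisson sampling, with TMM-scaled library sizes and Benjamini-Hochberg adjustment over all genes tested, called 10 of the 10 genes, against 54.9% of 14330 annotated genes. The test gains power with counts, and of 3363 protein-coding genes with mean counts in the range of these 10, 84.7% were called, so the count for the 10 genes is close to its background. Without replicate 1, Cd47 and Cd300lf were no longer called, without replicate 2 Cd47 and Ptpn11, and without replicate 3 Ptpn6, Inpp5d and Cd300lf. The background was 43.5%, 27.9% and 41.6% in these cases.

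The size of the spread was moderate. On the scale of log2 CPM, which is the count scaled by library size, the SD ran from 0.05 in Cd300lf, 0.10 in Cd47 and 0.14 in Inpp5d to 0.35 in Ptpn6, 0.40 in Cd33 and 0.43 in Cd300a, and its median over the 10 genes was 0.22. Relative to its size, the SD changed most on leaving out 1 library in Sirpa, Ptpn6, Ptpn11, Inpp5d and Cd300lf, and less in the other genes. Without replicate 3 the SD was 0.07 in Ptpn6, 0.03 in Inpp5d, 0.01 in Cd300lf and 0.22 in Cd33. Without replicate 2 it was 0.22 in Cd300a, 0.07 in Sirpa and 0.05 in Ptpn11, and without replicate 1 it was 0.06 in Cd47 and 0.14 in Siglec1. Cd47 had 0.07 without replicate 2 as well, but 0.14 without replicate 3. With all 3 libraries, the median SD over detected protein-coding genes was 0.24. Over protein-coding genes with mean counts in the range of these 10 it was 0.17, below the median of the 10 genes. The biological coefficient of variation from edgeR, a relative spread beyond counting noise that is moderated towards genes of like abundance and so can exceed a gene's own spread, ran from 17.2% in Cd47 to 22.0% in Cd300a, with each of the 10 genes below the median of 22.1% over all genes tested. For protein-coding genes in the same range of counts the median was 17.8%, and the median of the 10 genes was 18.7%.

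**Figure D4:**
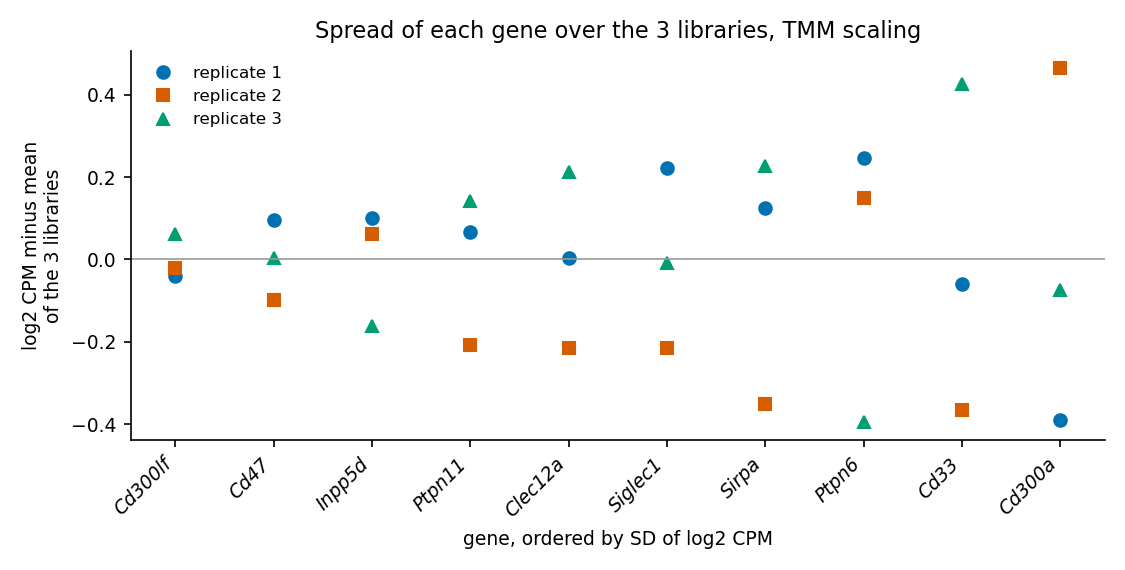
Log2 CPM of each gene in each library minus the mean of its 3 libraries (vertical axis), with TMM scaling and genes ordered by SD. Replicate 2 is the lowest library for 6 of the 10 genes, and Cd300a is the only gene of the 10 for which it is the highest.

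Which library was high depended on the scale. TPM in replicate 2 exceeded that in replicate 1 by a median of 0.35 (log2) over 10952 detected protein-coding genes, while TMM-scaled CPM differed by a median of 0.03. Siglec1, level in TPM across libraries, was lower in replicates 2 and 3 than in replicate 1 by TMM-scaled log2 CPM, with 9.29, 8.86 and 9.06. Sirpa differed between replicates 2 and 1 by -0.08 in log2(TPM + 1) and by -0.48 in log2 CPM. Replicate 2 was the lowest library for 1 of the 10 genes in TPM and for 6 of 10 in TMM-scaled CPM. Cd300a kept its direction on each of 5 scales, higher in replicate 2 than in replicate 1 by 0.84 to 1.40. Ptpn6 was likewise lower in replicate 3 than in replicate 1 on each of them, by -0.77 to -0.55. All 5 scales rest on the same expected counts and TPM. A second deposited TPM estimate of Ptpn6, a posterior mean, was 80.6, 109 and 84.6, with replicate 3 not below replicate 1. The read-based quantification, in contrast, had replicate 3 lowest, with 91.5, 172 and 65.2 TPM.

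Some values are less certain than their counts imply. The deposited credibility intervals, whose level is not given in the sources used here, lie around the posterior mean and not the TPM above. For Ptpn6 the interval ran from 50.6 to 130, from 58.7 to 196 and from 36.4 to 171 in replicates 1, 2 and 3. For Sirpa it ran from 924 to 971 in replicate 1, around 947, and the TPM of 1019 lay above it. Ptpn6 overlaps the antisense gene Gm20531 and shares 5.78% of its 31-base words with it. Whether strand was used in counting is not given in the sources used here, and Gm20531 had a mean of 24.0 counts. Cd300a shares 8.20% of its words with other genes, above all Cd300c2, which had 495 counts. Cd300lf shares 4.73%, above all with Cd300ld (61.7 counts), and lies within Rab37 on the opposite strand, which had 6.67 counts. Ptpn11 contains the unspliced model Gm42930 on its own strand, with 136, 131 and 208 counts.

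The surrounding pathway was largely present. Of 92 pathway genes in 6 lists, 80 were detected and 34 reached the top decile. Over all protein-coding genes 49.7% were detected, and 10% lie in the top decile by construction. In the list of other inhibitory receptors of leukocytes 21 of 26 genes were detected and 7 reached the top decile, and the median level was 5.57 TPM. Whether each product in this list, that of Lilr4b among them, is inhibitory was not tested. Lilrb4a and Lilr4b, neighbouring paralogs between which the counting could divide reads uncertainly, led with 2372 ± 736 and 1698 ± 520 TPM (SD, n = 3), and Siglecf, Pdcd1 and Btla were among the 5 that were not detected. Both leading genes had more TPM than Sirpa here, whereas in the read-based quantification Lilr4b had 1520 TPM and Sirpa 1816. All 14 other phosphatases were detected, with a median of 26.9 TPM, led by Ptprc, the CD45 gene whose product activates Src-family kinases (715 ± 98.9), and Inpp4a (76.2 ± 15.7). At 161 TPM, Inpp5d lay between these.

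All 15 adaptors were detected, with a median of 23.6 TPM, led by Fyb (1237 ± 154) and Skap2 (140 ± 15.3), whose products work together in adhesion. All 12 kinases and signalling partners were detected, with a median of 36.6 TPM, led by Syk (462 ± 71.0), the kinase of activating receptors, and Pik3ap1 (315 ± 19.4). Of 10 ligands and partners 7 were detected, led by Cd274 (320 ± 50.5), which encodes the checkpoint ligand PD-L1, and Lrp1 (262 ± 48.0), a receptor for calreticulin. Thbs2, Sftpd and Spn were not detected. Of 15 matched activating adaptors and paired receptors 11 were detected, with a median of 1.86 TPM, led by Fcer1g (141 ± 6.89), the ITAM adaptor, and Cd300c2 (35.0 ± 8.84; SD, n = 3). Hcst, Cd300lg and Trem1 were among the 4 not detected, and Sirpd was not matched by symbol.

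**Figure D5:**
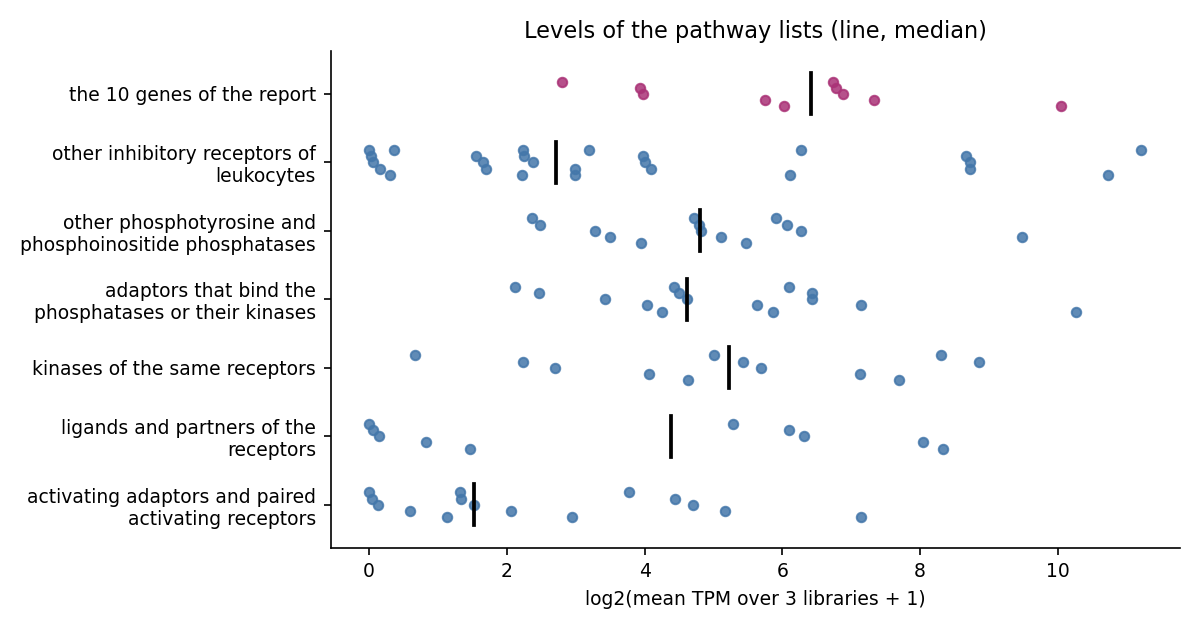
Mean TPM over 3 libraries on a log2(TPM + 1) axis for the 10 genes and for each pathway list, where each point is a gene and the line is the median. The 10 genes have a median of 84.8 TPM and the activating adaptors and paired receptors 1.86 TPM, and the lists overlap widely.

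The cell type was checked against marker genes. All 10 macrophage markers were detected, with a summed level of 1908 to 2457 CPM. Of 46 markers of other cell types 5 were detected, namely Zbtb46, Clec9a, Col1a1, Col1a2 and Col3a1, and all 46 summed to 6.01 to 11.1 CPM. The natural killer markers Ncr1, Klrb1c, Gzma, Eomes and Klra8, the T cell markers Cd3e, Cd3d and Cd3g and the neutrophil markers Ly6g and Cxcr2 had 0 counts in each library. Fibroblast markers summed to 0.0724, 4.19 and 5.27 CPM in replicates 1, 2 and 3. The TPM of Cd33, Clec12a and Ptpn11 rank the libraries in that order and those of the other 7 genes do not, and the part of such markers in the spread was not tested. The depth was 13802716 to 17187524 expected counts in annotated genes, and 0 counts are compatible with up to 3, or 0.175 to 0.217 CPM, which covers counting error only.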

How the data were processed

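Total RNA of the chromatin fraction was sequenced in 3 libraries of 1 group. Per the file headers and labels, the authors deposited gene and transcript tables with expected counts and TPM, made from an alignment to the mm10 transcriptome with GENCODE M21, and a transcript table of estimated counts and TPM made directly from the reads. Programs and settings: not given in the sources used here. Rows without a gene name did not enter library sizes (1.13%, 0.324% and 0.279% of all counts in replicates 1, 2 and 3). TPM is per length and gave levels. Expected counts were rounded for tests.

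Detection meant a mean of at least 10 counts. Percentiles were taken among all protein-coding genes. Spread was the SD of log2 CPM (TMM factors, prior count 0.5), and dispersion came from edgeR 4.0.16 with an intercept alone. Excess variation was tested per gene by chi-square against Poisson sampling with Benjamini-Hochberg adjustment at 0.05, tested on simulated data. Fold values were plain ratios of TPM, and differences between genes used log2(TPM + 1). Protein patterns were searched in GENCODE M21 translations, calling a stretch hydrophobic at a mean hydropathy of at least 1.6 over 19 residues. Named were the 10 genes, the 2 highest genes per list and its first undetected genes, 3 at most, the 3 genes nearest in level to each of the 2 highest members, and transcripts with at least 10% of a gene's TPM. The genes and lists were chosen with earlier results of these data known. Alternatives were other count minimums, CPM, DESeq2 1.42.0 size factors, total count scaling, the table from the reads, TPM rescaled over protein-coding genes, and leaving out each replicate.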

Additional observations from a re-analysis of the deposited data

How the results depend on the processing

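The number of genes detected was 10 of 10 under each minimum and with each replicate left out, and 6 to 7 were in the top decile. No alternative moved that count, the number varying beyond counting noise (7 to 10 of 10, with Ptpn11 lost under total count scaling, Cd300lf in the read-based quantification and with no filter on low counts) or the number of pathway genes detected (71 to 87 of 92) by more than 1.5 times. Of the pairs of genes with 1 direction in all 3 libraries, 2 turned: Inpp5d against Cd300lf became -0.20 on the log2(TPM + 1) scale with protein-coding transcripts alone, and Siglec1 against Cd47 became -0.32 in the read-based quantification. The sign of 3 pairs whose direction already differed between libraries also turned. Cd300lf against Clec12a, 0.10 in the main values, became -0.10 in the read-based quantification. Clec12a against Siglec1, 0.03, became -1.37 with protein-coding transcripts alone and -0.09 without replicate 3. Cd33 against Cd300a, 0.13, became -0.39 in the read-based quantification, -0.53 with protein-coding transcripts alone, -0.04 without replicate 1 and -0.09 without replicate 3. The cause was not tested. The read-based quantification moved 68 of 108 single values by more than a limit, which was their spread for all but 1 kind of value. These values were levels, percentiles, spreads, transcript shares and log2 differences between genes. For values that are themselves spreads, the limit was a fraction of the value, as 0.155 for the SD of 0.310 in Sirpa. Counts in place of TPM moved 41 of 55 transcript shares. Leaving out replicates 1, 2 and 3 moved 2, 5 and 5 of 108. These counts, and the 41 shares, include the other non-coding shares of Ptpn6 and Ptpn11, which were 0 throughout. No other value moved without replicate 1. The 68 values likewise include the other non-coding share of Ptpn6, which stayed at 0. No paired analysis was possible because there is 1 group. With 3 libraries and no group for comparison, depth does not limit the levels of these 10 genes, which have means of 495 counts or more, but the number of libraries limits the spread.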

Other observations

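Several receptor pairs and ligand pairs of the pathway lists were singled out after their values were seen. Cd274, encoding PD-L1, had 320 ± 50.5 TPM, while its receptor gene Pdcd1 had 0 counts in each library. Cd200r1, an inhibitory receptor gene of myeloid cells, had 15.1 ± 4.05 TPM and its ligand gene Cd200 had 1.76 ± 1.53 (SD, n = 3). The inhibitory receptor gene Pilra had 14.8 ± 3.62 TPM and its activating partner Pilrb1 had 12.7 ± 2.03, and Pilra was the higher in 3 of 3 libraries while their ranges overlapped. Against Sirpa, the paired activating genes Sirpb1a, Sirpb1b and Sirpb1c had 0.503 ± 0.220, 1.20 ± 0.121 and 1.49 ± 0.35 TPM (SD, n = 3).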
